A study of Mus musculus with 8 samples.

Results

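PGC-1alpha, the nuclear receptors it works with and the genes of fat oxidation were examined in whole brain of mice that lack SIRT1 in the brain. The genes were taken by name: Ppargc1a, Esrra, Tfam, Ppara, Ppard, Cpt1a, Acadm, Ucp2 and Cd36. They were chosen with earlier results of these data known. Every probe set whose only gene symbol was one of these 9 was taken, which gave 16 of the 22626 tested probe sets and 8 of the 12393 genes measured. Ucp2 was not analysed here. Gene expression had been measured in male C57/B6 mice aged 3 months, in 4 SIRT1 brain specific knockout mice (BSKO) and in 4 wild-type littermates (WT). Total RNA of each whole brain was hybridised to 1 Affymetrix Mouse430A_2 array with a single channel. The promoter or cell type that drives the deletion is not given in the sources used here. No agent was given to either genotype as far as the labels say.

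PGC-1alpha is a transcriptional coactivator. It does not bind DNA itself and is brought to promoters by partners such as the estrogen-related receptor ERRalpha, the peroxisome proliferator-activated receptors (PPARs) and nuclear respiratory factors, where it raises transcription of mitochondrial and fat oxidation genes. SIRT1, an NAD-dependent deacetylase, removes acetyl groups from the PGC-1alpha protein, a step that RNA measurements do not see. In the brain PGC-1alpha is prominent in GABA neurons, among them those with parvalbumin, and fatty acids are oxidised mostly in astrocytes.

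The deposited values are log2 values centred on the median of each probe set. A value of 0 is therefore the middle of the 8 arrays, and the values show how the arrays differ but not how strongly a gene is expressed, so the labelled tissue could not be checked against the level of its markers. BSKO 2 stood apart: the SD of its values over all tested probe sets was 0.831, against 0.222 to 0.314 on the other BSKO arrays and 0.150 to 0.220 on the WT arrays. The log2 value of its 5′ beta-actin probe set minus that of the 3′ one was -2.44, against -0.10 to 0.49 on the other 7 arrays. Each result is given with all 8 arrays and without BSKO 2, and each difference is BSKO minus WT on the log2 scale. The targeted gene Sirt1, on probe set 1418640_at, had 0.08, -1.46, -0.20 and -0.06 on BSKO 1 to 4 and 0.00, 0.00, 0.08 and 0.29 on WT 1 to 4, and the genotypes overlapped. Its difference was -0.50 (SE 0.31, limma adjusted p = 0.549) with 8 arrays and -0.15 (SE 0.10, adjusted p = 0.428) without BSKO 2. The part of Sirt1 that this probe set covers is not given here, so it does not check the labels. The series' design text calls the 4 samples of a genotype biological replicates.

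These promoters are printed because Ppargc1a heads the pathway, Cd36 was the member that fell and Cpt1a the enzyme that paces fat oxidation. Each runs from 250 bases before to 50 bases after the gene's start in RefSeq, on build GRCm38.p6, 5′ to 3′ on the gene's strand. Capitals mark TGACCT, the reverse complement of AGGTCA, the core motif of many nuclear receptor sites.
Ppargc1a (chr5:51567676-51567975, minus strand): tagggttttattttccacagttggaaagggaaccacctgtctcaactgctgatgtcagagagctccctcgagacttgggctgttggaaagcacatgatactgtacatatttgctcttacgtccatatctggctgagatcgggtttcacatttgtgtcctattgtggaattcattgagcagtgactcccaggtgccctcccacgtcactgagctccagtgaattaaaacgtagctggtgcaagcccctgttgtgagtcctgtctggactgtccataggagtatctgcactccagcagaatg
Cpt1a (chr19:3323051-3323350, plus strand): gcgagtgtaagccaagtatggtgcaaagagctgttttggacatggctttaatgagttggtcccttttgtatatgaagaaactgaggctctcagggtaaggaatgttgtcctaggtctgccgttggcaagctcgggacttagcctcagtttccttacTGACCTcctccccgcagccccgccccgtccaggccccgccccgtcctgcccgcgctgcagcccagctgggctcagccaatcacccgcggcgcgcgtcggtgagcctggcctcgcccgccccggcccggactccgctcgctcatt
Cd36 (chr5:17835847-17836146, minus strand): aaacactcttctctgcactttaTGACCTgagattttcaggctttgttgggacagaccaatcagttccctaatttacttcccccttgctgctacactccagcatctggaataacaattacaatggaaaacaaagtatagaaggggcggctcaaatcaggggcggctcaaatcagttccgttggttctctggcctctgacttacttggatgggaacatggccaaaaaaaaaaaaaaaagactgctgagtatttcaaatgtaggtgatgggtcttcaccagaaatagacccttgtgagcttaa
The core motif AGGTCA, searched on both strands, was present in the promoters of Acadm, Cpt1a and Cd36, which is 3 of the 9 genes, and in 16.3% of the 32851 promoters of the same length. Its first base lay 249 bases before the start in Acadm, 228 before it in Cd36 and 94 before it in Cpt1a. The ERR element TNAAGGTCA, which holds the core motif, and the PPAR element made of a pair of core motifs with 1 base between them were in none of the 9 windows and in 1.28% and 0.0396% of all promoters. Ppargc1a and Cd36 had the lowest GC content of the 9, at 48.7% and 43.0%, where the others had 62.3% to 74.7% and the median of all promoters was 52.7%. These letters describe 1 RefSeq start for each gene, and the arrays do not show which start the brain uses.

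Cd36 fell in BSKO brain without BSKO 2 on each of its 3 probe sets, with log2 differences of -1.75 to -0.89, and no other member passed the test in either fit. Cd36 encodes a scavenger receptor that takes up long-chain fatty acids. With all 8 arrays none of the 16 member probe sets passed (limma with Benjamini-Hochberg adjustment over 22626 probe sets), where 0.0309% of all did, and 5 had an unadjusted p under 0.05, as did 10.8% of all probe sets. Without BSKO 2, 3 of the 16 passed, all lower in BSKO, where 1.14% of all probe sets were called as lower and 1.63% were called in all. An unadjusted p under 0.05 was then found for 9 of the 16, and for 19.8% of all probe sets. When 1 more array was left out, all 3 calls held without BSKO 1, 1 held without BSKO 3 or WT 1, and none held without BSKO 4, WT 2, WT 3 or WT 4. The difference was below 0 for 12 of the 16 with 8 arrays and for 14 without BSKO 2, where 46.5% and 47.8% of all probe sets were below 0. The median difference of the 16 was -0.17 with 8 arrays and -0.32 without BSKO 2, against 0.02 and 0.01 over all probe sets. The 16 are not independent, since 11 of them belong to 3 genes. They were also chosen with earlier results of these data known. The shares set beside all probe sets therefore describe the members and test nothing.

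**Figure D1:**
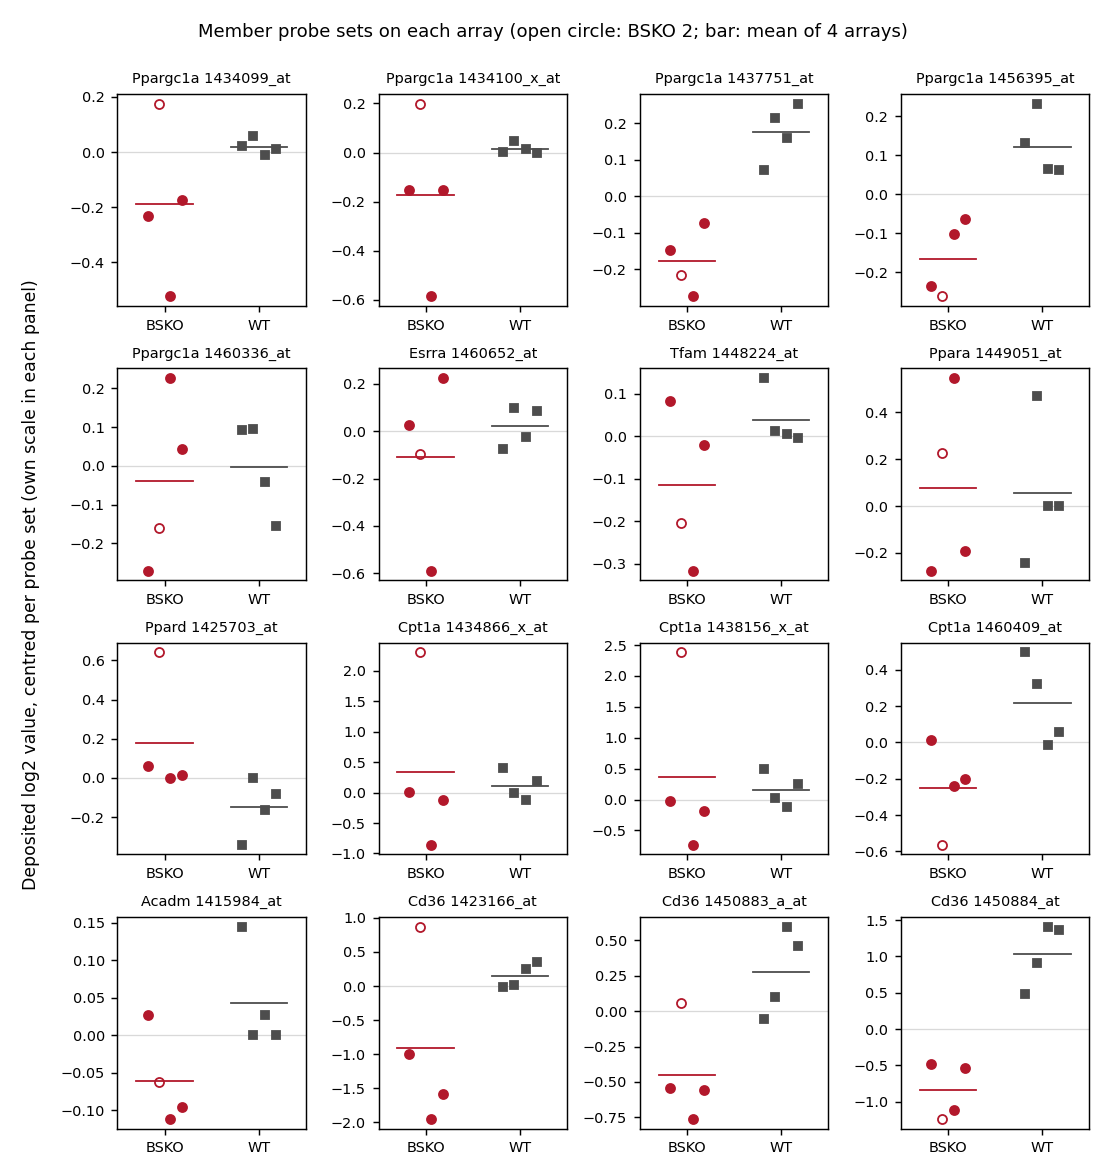
Deposited log2 value (vertical axis, centred per probe set, own scale in each panel) of the 16 member probe sets on the 4 BSKO arrays (circles, BSKO 2 open) and the 4 WT arrays (squares), with the mean of each genotype as a bar. For Cd36 the BSKO arrays other than BSKO 2 lie below every WT array on all 3 probe sets, and for Cpt1a the open circle lies at 2.30 and 2.38 on the probe sets that end in x_at.

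On probe set 1450884_at the log2 value of Cd36 was -0.48, -1.24, -1.12 and -0.54 on BSKO 1 to 4, against 0.48, 0.91, 1.41 and 1.36 on WT 1 to 4. All 4 BSKO arrays lay below all 4 WT arrays. The mean was -0.84 ± 0.39 in BSKO and 1.04 ± 0.43 in WT (SD, n = 4 each), a difference of -1.88 (SE 0.26), or 3.69-fold lower, which missed the threshold over all probe sets (limma adjusted p = 0.0652). The adjusted p without BSKO 2 was 0.0237, with a difference of -1.75 (SE 0.25).

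Probe set 1423166_at read Cd36 as -0.996, 0.87, -1.95 and -1.59 on BSKO 1 to 4, against -0.01, 0.01, 0.24 and 0.36 on WT 1 to 4. BSKO 2 was the highest of the 8 arrays here and the other BSKO arrays were the lowest. The difference was -1.07 (SE 0.54, limma adjusted p = 0.505) with 8 arrays and -1.66 (SE 0.21, adjusted p = 0.0189) without BSKO 2, which is 3.16-fold lower. On 1450883_a_at Cd36 had -0.54, 0.06, -0.76 and -0.56 on BSKO 1 to 4, against -0.06, 0.10, 0.60 and 0.46 on WT 1 to 4. BSKO 2 lay within the range of the WT arrays and the other BSKO arrays below it. The difference was -0.73 (SE 0.21, limma adjusted p = 0.308) with 8 arrays and -0.89 (SE 0.16, adjusted p = 0.0413) without BSKO 2.

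Averaged over its 3 probe sets, Cd36 was -0.67, -0.10, -1.28 and -0.89 on BSKO 1 to 4, against 0.14, 0.34, 0.75 and 0.73 on WT 1 to 4. The genotypes did not overlap on this mean, also with BSKO 2, and BSKO 2 was the nearest of its group to WT. The difference was -1.22 (SE 0.25, limma adjusted p = 0.129 over all genes) with 8 arrays and -1.44 (SE 0.19, adjusted p = 0.0209), or 2.71-fold lower, without BSKO 2. In the fit without BSKO 2 the call was lost when BSKO 3, BSKO 4, WT 2, WT 3 or WT 4 was left out as well, with differences of -1.57 to -1.27 and adjusted p up to 0.0679 over all such fits. It held without BSKO 1 or WT 1. WT 1 and WT 2 were lower than WT 3 and WT 4 on every Cd36 probe set, so differences within replicates 1 and 2 and within 3 and 4 are given too, with no test. On the mean of the probe sets BSKO 1 and 2 differed from WT 1 and WT 2 by -0.63, and BSKO 1 alone by -0.91. BSKO 3 and 4 differed from WT 3 and WT 4 by -1.82. With BSKO 2, the difference within replicates 1 and 2 was -0.06 on 1423166_at, -0.26 on 1450883_a_at and -1.56 on 1450884_at.

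Whole brain RNA does not tell fewer cells of a type from less RNA per cell, so some of the 12 marker lists measured are given beside it. The median of the 8 endothelial markers was -0.18 to 0.02 on the BSKO arrays and -0.03 to 0.10 on the WT arrays, and 2 of the 8 were lower in BSKO without overlap with 8 arrays, where 6.85% of all genes were. The median of the 9 microglial markers was -0.17 to 0.27 in BSKO and -0.11 to 0.14 in WT, and the genotypes overlapped for each of them. The 4 adipocyte markers had a median of -0.04 to 0.34 in BSKO and -0.05 to 0.03 in WT, also with overlap for each. None of these 21 markers passed the limma test in either fit. An unadjusted p under 0.05 was found for 1 microglial marker with 8 arrays and for 1 endothelial marker without BSKO 2, and for 12.2% and 21.2% of all genes. The 7 markers of meninges and fibroblasts did differ: their median was -0.61 to -0.22 in BSKO and 0.13 to 0.75 in WT, 6 of the 7 were lower without overlap with 8 arrays, where 6.85% of all genes were. Ogn and Lum passed as lower without BSKO 2, where 1.39% of all genes did. WT 1 and WT 2 were the highest arrays for that list (0.75 and 0.69) and the lowest of the WT arrays for Cd36. Among the other lists, the median of the 5 skeletal muscle markers was 0.006 to 0.134 in BSKO and -0.325 to -0.001 in WT. For the 4 choroid plexus markers it was -1.84 to 0.43 in BSKO and -0.12 to 0.23 in WT. For the 6 astrocyte markers it was -0.32 to 0.12 in BSKO and -0.03 to 0.16 in WT. No marker of these lists passed the limma test in either fit. The part of any of these cells in the Cd36 result was not tested.

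Ppargc1a encodes PGC-1alpha itself and has 5 probe sets, none of which passed the test without array weights or quantile normalization. On 1437751_at its log2 value was -0.15, -0.22, -0.27 and -0.07 on BSKO 1 to 4, against 0.07, 0.22, 0.16 and 0.25 on WT 1 to 4. On 1456395_at it was -0.23, -0.26, -0.10 and -0.06 on BSKO 1 to 4, against 0.13, 0.23, 0.06 and 0.06 on WT 1 to 4. All 4 BSKO arrays lay below all 4 WT arrays on both, as was so for 6.66% of all probe sets. The difference was -0.35 (SE 0.09, limma adjusted p = 0.264) on 1437751_at and -0.29 (SE 0.10, adjusted p = 0.359) on 1456395_at with 8 arrays. Without BSKO 2 it was -0.34 (adjusted p = 0.0768) and -0.25 (adjusted p = 0.133). Probe set 1437751_at passed where the arrays were quantile normalized (-0.48, limma adjusted p = 0.0493 with 8 arrays) or weighted (-0.29, adjusted p = 0.0280 with 8 arrays and -0.28, adjusted p = 0.0323 without BSKO 2). In the weighted fit with 8 arrays BSKO 4 had a weight of 3.69, against 0.83, 0.046 and 0.49 on BSKO 1 to 3. That fit therefore rests mostly on BSKO 4 for the BSKO side.

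On probe set 1434099_at Ppargc1a was -0.23, 0.18, -0.52 and -0.17 on BSKO 1 to 4, against 0.02, 0.06, -0.01 and 0.01 on WT 1 to 4. On 1434100_x_at it was -0.15, 0.20, -0.59 and -0.15 on BSKO 1 to 4, against 0.00, 0.05, 0.02 and 0.00 on WT 1 to 4. BSKO 2 was above every WT array on both and the other BSKO arrays were below. The WT arrays spanned little, with SDs of 0.03 and 0.02 (n = 4). The 2 probe sets followed each other closely over the 8 arrays (Pearson r = 0.984 as a description). Without BSKO 2 the differences were -0.33 (SE 0.09, limma adjusted p = 0.117) and -0.31 (SE 0.11, adjusted p = 0.184).

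The fifth probe set, 1460336_at, differed from the others for Ppargc1a, with -0.27, -0.16, 0.23 and 0.04 on BSKO 1 to 4, against 0.09, 0.09, -0.04 and -0.16 on WT 1 to 4. The genotypes overlapped throughout and the difference was -0.04 (SE 0.13) with 8 arrays and 0.00 (SE 0.13) without BSKO 2. Averaged over its 5 probe sets, Ppargc1a was -0.21, -0.05, -0.25 and -0.08 on BSKO 1 to 4, against 0.06, 0.13, 0.04 and 0.03 on WT 1 to 4. The genotypes did not overlap on that mean, as was so in the same direction for 6.85% of all genes. The mean was -0.15 ± 0.10 in BSKO and 0.07 ± 0.04 in WT (SD, n = 4 each). The difference was -0.21 (SE 0.09, limma adjusted p = 0.391) with 8 arrays and -0.25 (SE 0.07, adjusted p = 0.0970), or 1.19-fold lower, without BSKO 2. Without BSKO 2, 4 of the 5 probe sets were lower without overlap, where 10.3% of all probe sets were. The 5 markers of parvalbumin and other GABA neurons had a median difference of -0.27 with 8 arrays and -0.02 without BSKO 2. None of these markers passed the limma test in either fit. The part of cell numbers in the Ppargc1a values was not tested.

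**Figure D2:**
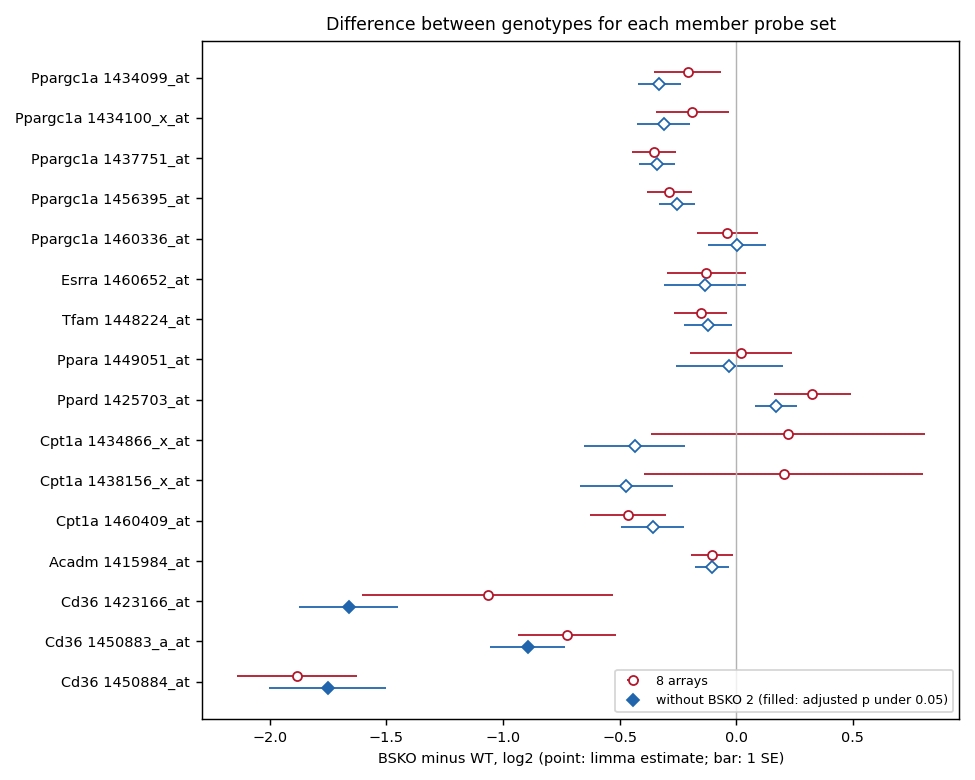
Log2 difference, BSKO minus WT (horizontal axis), of each of the 16 member probe sets with 8 arrays (circles) and without BSKO 2 (diamonds, filled where the adjusted p was under 0.05), with 1 SE as a bar. The 3 filled diamonds are those of Cd36, and the circles of the Cpt1a probe sets ending in x_at lie at 0.22 and 0.20 while their diamonds lie at -0.44 and -0.47.

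Esrra encodes ERRalpha, an orphan nuclear receptor and a main partner of PGC-1alpha. Its probe set 1460652_at had 0.03, -0.10, -0.59 and 0.22 on BSKO 1 to 4, against -0.08, 0.10, -0.03 and 0.08 on WT 1 to 4. BSKO 3 was the lowest array and BSKO 4 the highest, and the difference of -0.13 (SE 0.17, limma adjusted p = 0.739) was within the spread of the BSKO arrays. Tfam, the factor that packs and transcribes mitochondrial DNA, had 0.08, -0.20, -0.32 and -0.02 on BSKO 1 to 4, against 0.14, 0.01, 0.00 and 0.00 on WT 1 to 4. Its genotypes overlapped through BSKO 1, and the difference was -0.15 (SE 0.11, adjusted p = 0.595) with 8 arrays and -0.12 (adjusted p = 0.545) without BSKO 2, by limma.

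Ppara encodes the fatty acid receptor PPARalpha, which drives fat oxidation in liver. Probe set 1449051_at read it as -0.27, 0.23, 0.54 and -0.19 on BSKO 1 to 4, against -0.24, 0.47, 0.00 and 0.00 on WT 1 to 4. Both genotypes spanned most of the range, with SDs of 0.38 in BSKO and 0.30 in WT, and the difference was 0.02 (SE 0.22, limma adjusted p = 0.969). Ppard, for the widely expressed receptor PPARdelta, had 0.06, 0.64, 0.00 and 0.01 on BSKO 1 to 4, against -0.34, 0.00, -0.17 and -0.08 on WT 1 to 4. It was the member with the largest difference above 0, at 0.33 (SE 0.16, limma adjusted p = 0.505) with 8 arrays and 0.17 (SE 0.09, adjusted p = 0.330) without BSKO 2. BSKO 2 alone lay far above the rest, and BSKO 3 lay just below WT 2.

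Cpt1a encodes the liver form of carnitine palmitoyltransferase 1, which paces the entry of long-chain fatty acids into mitochondria, and its 3 probe sets disagreed on BSKO 2. On 1460409_at it was 0.01, -0.56, -0.24 and -0.20 on BSKO 1 to 4, against 0.50, 0.32, -0.01 and 0.06 on WT 1 to 4. There BSKO 2 was the lowest array, and only BSKO 1 reached into the WT range. The difference was -0.46 (SE 0.16, limma adjusted p = 0.376) with 8 arrays and -0.36 (SE 0.13, adjusted p = 0.200) without BSKO 2.

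On the Cpt1a probe set 1434866_x_at the values were 0.01, 2.30, -0.86 and -0.12 on BSKO 1 to 4, against 0.40, -0.01, -0.13 and 0.19 on WT 1 to 4. On 1438156_x_at they were -0.02, 2.38, -0.73 and -0.18 on BSKO 1 to 4, against 0.50, 0.02, -0.12 and 0.25 on WT 1 to 4. BSKO 2 was the highest array on both, by far, and BSKO 3 the lowest. The x_at ending marks probe sets that can hybridise to other transcripts. The sign of the difference turned on this 1 array: it was 0.22 (SE 0.59) and 0.20 (SE 0.60) with 8 arrays, and -0.44 (SE 0.22, limma adjusted p = 0.309) and -0.47 (SE 0.20, adjusted p = 0.244) without BSKO 2. Averaged over the 3 probe sets, Cpt1a differed by -0.42 (SE 0.17, limma adjusted p = 0.210 over all genes) without BSKO 2.

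Acadm encodes medium-chain acyl-CoA dehydrogenase, an enzyme of the beta-oxidation cycle and a classic PGC-1alpha target. It had 0.03, -0.06, -0.11 and -0.10 on BSKO 1 to 4, against 0.14, 0.00, 0.03 and 0.00 on WT 1 to 4. BSKO 1 lay within the WT range and the other BSKO arrays below it. Its difference was -0.10 (SE 0.09, limma adjusted p = 0.628) with 8 arrays and -0.10 (SE 0.07, adjusted p = 0.455) without BSKO 2. In simulated data the fit without BSKO 2 recovered 46.5% of changes of 1.5-fold and 86% of 2-fold changes, and with 8 arrays none and 60.5%. The simulated noise was independent, with the same SD on every array for a probe set, so it lacks the wide spread of BSKO 2. These shares are averages over randomly drawn probe sets and do not give what the test could miss for Acadm or another member.

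Of 78 other genes of the pathway, taken from 8 lists and measured as the mean of their probe sets, none passed with 8 arrays, where 0.0726% of all genes did, and 9 had an unadjusted p under 0.05, as did 12.2% of all genes. Without BSKO 2, 2 passed, Ppargc1b as higher and Acsl4 as lower. That is 2.56%, where 2.15% of all genes were called (0.758% as higher and 1.39% as lower), so the lists as a whole were called about as often as all genes. An unadjusted p under 0.05 was found for 13 of the 78, and for 21.2% of all genes. Of all genes, 45.2% had a difference below 0 with 8 arrays and 46.4% without BSKO 2.

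**Figure D3:**
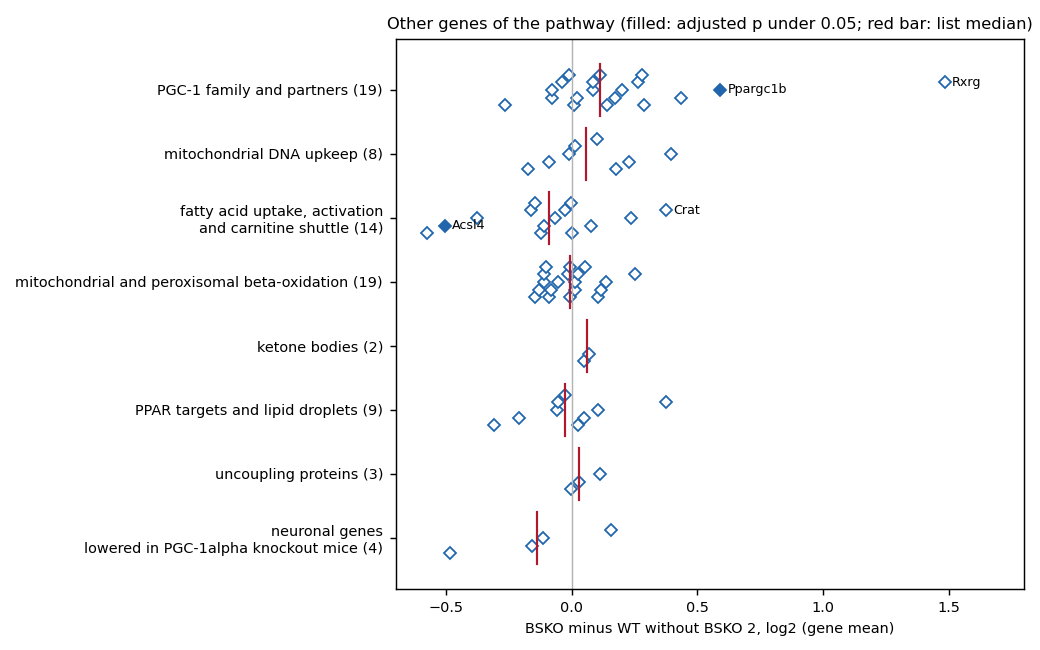
Log2 difference, BSKO minus WT without BSKO 2 (horizontal axis), of the measured genes of the 8 lists (number in brackets), with filled diamonds for an adjusted p under 0.05 and a red bar at the list median. Ppargc1b (0.59) and Acsl4 (-0.51) are filled, Rxrg (1.48) lies farthest out, and the 19 beta-oxidation genes lie between -0.14 and 0.25.

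Among 19 relatives and partners of PGC-1alpha, which are coactivators, a corepressor, an acetyltransferase, nuclear receptors and other transcription factors, 16 were above 0 with 8 arrays and 14 without BSKO 2, with a list median of 0.08 and 0.11, against 0.03 and 0.01 over all genes. Ppargc1b encodes PGC-1beta, the closest relative of PGC-1alpha, and was 0.27, 0.08, 0.57 and 0.53 on BSKO 1 to 4, against -0.14, -0.08, -0.15 and -0.17 on WT 1 to 4. All 4 BSKO arrays lay above all 4 WT arrays, opposite in sign to Ppargc1a. It differed by 0.49 (SE 0.12, limma adjusted p = 0.192) with 8 arrays and rose by 0.59 (SE 0.08, adjusted p = 0.0227) on the log2 scale without BSKO 2. That call held when BSKO 1 was left out too and was lost when any other of the 7 arrays was (adjusted p up to 0.0825).

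Rxrg, for a retinoid receptor that pairs with PPARs and is abundant in striatum, was 0.39, -0.16, 1.15 and 1.30 on BSKO 1 to 4, against -1.13, -1.02, 0.07 and -0.07 on WT 1 to 4. BSKO 1 and 2 were below BSKO 3 and 4, and WT 1 and WT 2 far below WT 3 and WT 4. Its difference was 1.21 (limma adjusted p = 0.302) with 8 arrays and 1.48 (adjusted p = 0.0761) without BSKO 2. With a term for replicates 1 and 2 against 3 and 4 in the model, Rxrg passed in both fits (limma adjusted p = 0.0147 and 0.00181). That term follows a split seen in these same arrays, and no label calls it a batch, so this pass is no separate support. The median of 6 striatal projection neuron markers moved with Rxrg, at 0.10, 0.00, 1.13 and 1.12 on BSKO 1 to 4 and -1.98, -1.82, 0.04 and -0.09 on WT 1 to 4. Their part in the Rxrg values was not tested. Kat2a, for the acetyltransferase GCN5 that acetylates PGC-1alpha, differed by 0.43 (adjusted p = 0.281) and Nrf1, for nuclear respiratory factor 1, by 0.25 (adjusted p = 0.404) with 8 arrays, by limma, and neither overlapped between genotypes. Over the alternative settings the lowest limma adjusted p of Kat2a was 0.0308 with 8 arrays and 0.0348 without BSKO 2, which passed. Nrf1 passed under none of them. Of the 19 genes 3 were higher without overlap with 8 arrays, where 6.4% of all genes were.

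**Figure D4:**
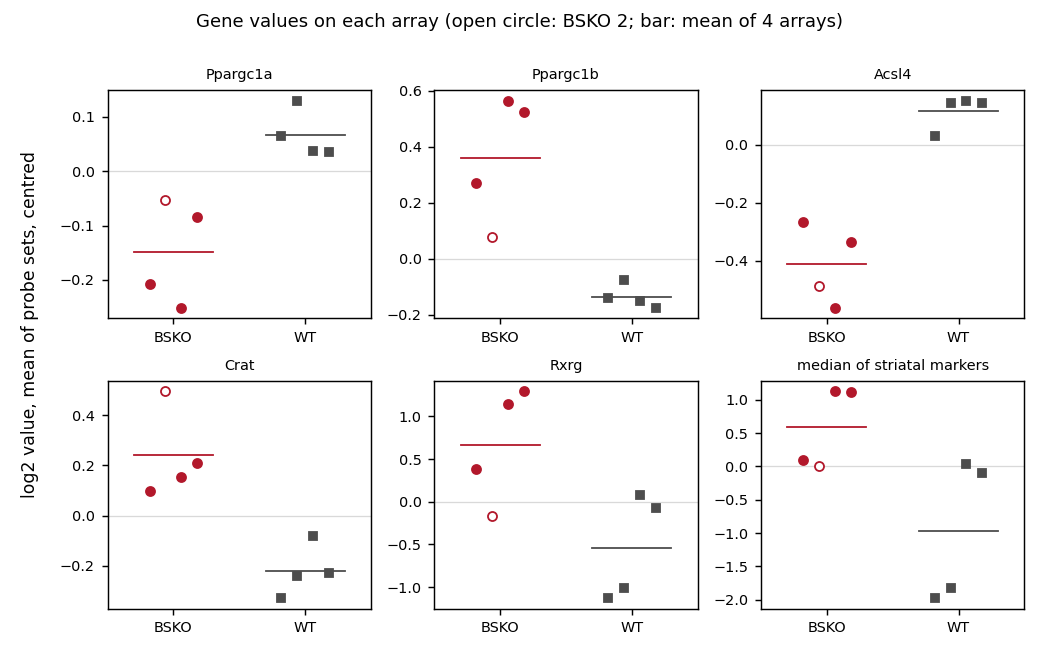
Log2 value (vertical axis, mean of a gene's probe sets, own scale in each panel) of Ppargc1a, Ppargc1b, Acsl4, Crat and Rxrg and the median of the striatal markers, on BSKO arrays (circles, BSKO 2 open) and WT arrays (squares), with the mean of each genotype as a bar. Ppargc1a and Acsl4 lie lower and Ppargc1b and Crat higher on every BSKO array than on any WT array, and Rxrg and the striatal median split WT 1 and WT 2 from WT 3 and WT 4.

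Of 14 genes of fatty acid uptake, activation and the carnitine shuttle, 11 were below 0 with 8 arrays (list median -0.12) and 10 without BSKO 2 (-0.09). Acsl4, an acyl-CoA synthetase that prefers arachidonic acid, was -0.27, -0.49, -0.56 and -0.33 on BSKO 1 to 4, against 0.03, 0.14, 0.15 and 0.14 on WT 1 to 4. BSKO 2 lay among the other BSKO arrays here, and the genotypes did not overlap. It differed by -0.53 (SE 0.10, limma adjusted p = 0.0978) with 8 arrays and by -0.51 (SE 0.08, adjusted p = 0.0300), or 1.42-fold lower, without BSKO 2. That call, too, was lost when any of the 7 arrays other than BSKO 1 was left out (adjusted p up to 0.106).

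Crat, carnitine acetyltransferase, was 0.10, 0.50, 0.15 and 0.21 on BSKO 1 to 4, against -0.33, -0.24, -0.08 and -0.23 on WT 1 to 4. The genotypes did not overlap, and the difference of 0.46 (limma adjusted p = 0.192) with 8 arrays and 0.38 (adjusted p = 0.05002) without BSKO 2 fell just short of the threshold in the second fit. It passed in both fits with quantile normalization (adjusted p = 0.0203 and 0.0473) or array weights (0.0126 and 0.0163), and without BSKO 2 with the term for replicates 1 and 2 against 3 and 4 (0.0324) or with BSKO 1 left out too (0.0404). Fabp7, the fatty acid binding protein of astrocytes and radial glia, differed by -0.38 (adjusted p = 0.325) and Slc27a4, a fatty acid transport protein, by 0.50 (adjusted p = 0.432) with 8 arrays, by limma. For Slc27a4 BSKO 2 had 1.18, against 0.05 to 0.26 on the other BSKO arrays. Without BSKO 2 Fabp7 differed by -0.38 (limma adjusted p = 0.160) and Slc27a4 by 0.24 (adjusted p = 0.129). Neither overlapped between genotypes in either fit. With 8 arrays that was so for 6.85% of all genes as lower and 6.4% as higher. Over the alternative settings the lowest limma adjusted p of Fabp7 was 0.0254 with 8 arrays and 0.0149 without BSKO 2. Slc27a4 passed under none of them.

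The enzymes of beta-oxidation showed no call by limma in either fit, nor an unadjusted p under 0.05. Of 19 genes, 11 were below 0 with 8 arrays and 11 without BSKO 2, of which 8 were the same genes, none was separated between genotypes with 8 arrays, and the list median was -0.07 with 8 arrays and -0.01 without BSKO 2. Etfb, a subunit of the flavoprotein that takes electrons from the acyl-CoA dehydrogenases, differed by 0.24, Acadl, the long-chain dehydrogenase, by -0.17, Acads, the short-chain one, by 0.21, and Acaa2, the mitochondrial thiolase, by -0.36 with 8 arrays (limma adjusted p = 0.460 to 0.488 for these 4). Without BSKO 2 the differences of these 19 genes lay between -0.14 and 0.25 on the log2 scale.

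Genes that maintain mitochondrial DNA had no call by limma in either fit. In each fit 1, Polg, had an unadjusted p under 0.05, as did 12.2% of all genes with 8 arrays and 21.2% without BSKO 2. Of 8 genes, 6 were above 0 with 8 arrays and 5 without BSKO 2 (list median 0.12 and 0.06). Polg, the mitochondrial DNA polymerase, was higher in BSKO without overlap, with a difference of 0.23 in both fits (limma adjusted p = 0.347 and 0.101). Over the alternative settings its lowest limma adjusted p was 0.0372 with 8 arrays and 0.0373 without BSKO 2, which passed. Ssbp1, the mitochondrial single-strand binding protein, differed by -0.42 with 8 arrays, where BSKO 2 was -1.12, and by -0.17 without it. Lonp1, a matrix protease, differed by 0.24 and Polg2, an accessory subunit of the polymerase, by 0.17 with 8 arrays, and by 0.18 and 0.01 without BSKO 2.

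Among 9 PPAR targets and lipid droplet genes, 6 were above 0 with 8 arrays and 4 without BSKO 2, and none passed in either fit. An unadjusted p under 0.05 was found for 1 with 8 arrays and 2 without BSKO 2, and for 12.2% and 21.2% of all genes. Fgf21, a fasting hormone of liver under PPARalpha, was 0.14, 0.81, 0.08 and 0.40 on BSKO 1 to 4, against -0.13, -0.08, -0.13 and -0.32 on WT 1 to 4. The genotypes did not overlap with 8 arrays, as was so in the same direction for 6.4% of all genes. The difference was 0.52 (SE 0.16, limma adjusted p = 0.283) with 8 arrays and 0.37 (SE 0.10, adjusted p = 0.0935) without BSKO 2. Over the alternative settings the lowest limma adjusted p of Fgf21 was 0.0159 with 8 arrays and 0.0188 without BSKO 2, which passed. The lipases Pnpla2 (0.27) and Lipe (-0.24) and the thioesterase Acot1 (0.27) had differences with 8 arrays that were 0.02, 0.11 and 0.05 without BSKO 2.

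The uncoupling proteins Ucp1, Ucp3 and Slc25a14 differed by 0.20, -0.02 and 0.09 with 8 arrays and by 0.00, 0.03 and 0.11 without BSKO 2. Bdh1 and Oxct1, enzymes of ketone body use, differed by -0.03 and -0.02 with 8 arrays and by 0.05 and 0.07 without BSKO 2. None of these 5 passed in either fit or had an unadjusted p under 0.05 (lowest limma adjusted p = 0.402). The last list held 4 neuronal genes known to be lower in mice without PGC-1alpha. With 8 arrays the calcium buffer gene Pvalb differed by -0.27, the synaptic protein genes Cplx1 and Syt2 by -0.29 and 0.06, and the neurofilament gene Nefh by -0.43. Without BSKO 2 these differences were -0.16, -0.12, 0.15 and -0.48, and none passed or had an unadjusted p under 0.05 (lowest limma adjusted p = 0.240). For Nefh, BSKO 3 was low (-0.70) and WT 1 and WT 2 were high (0.53 and 0.44, with WT 3 and WT 4 at -0.01 and 0.01).

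The genes most like Ppargc1a across arrays were named by Pearson's r with the mean of its probe sets, over 12393 genes, as a description. Over the 7 arrays other than BSKO 2 these were Il33, a nuclear alarmin cytokine (r = 0.987), the fibroblast growth factor receptor gene Fgfr2 (0.982), the myelin protein gene Pmp22 (0.978), the transcription factor gene Cebpd (0.976) and Tmem144 (0.976). Over all 8 arrays they were the astrocyte filament gene Gfap (0.952), the collagen gene Col1a1 (0.949), Ramp2 (0.945), Pola1 (0.942) and Hsd17b11 (0.942), so the lists shared no gene. Among the members, Cd36 had the highest r with Ppargc1a (0.855 over 7 arrays), Cpt1a had 0.723 and Ppard -0.533. Ppargc1b had -0.840. All points share the same few arrays and the split by genotype.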

How the data were processed

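Total RNA of 8 whole brains was measured on Affymetrix Mouse430A_2 arrays. The deposited log2 values were made by the authors with RMA, per the submitters' processing notes, whose version is not given in the sources used here. In the values, 22689 of 22690 probe sets had a median within 1e-05 of 0, a centring that no label records. The 64 control probe sets were left out. Symbols came from the platform annotation, updated by Entrez number to RefSeq (GRCm38.p6): 20380 probe sets had 1 symbol, 691 several and 1555 none.

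The genotypes were set against each other in limma 3.58.1 (R 4.3.3; lmFit, eBayes), two-sided, with 8 arrays and without BSKO 2. Adjustment was by Benjamini-Hochberg over all probe sets, or over all 12393 genes, with a threshold of 0.05. A gene's value was the mean of its probe sets. No filter on dim probe sets was run, since centred values hold no brightness. From each list up to 4 genes with the smallest p with 8 arrays, and any called gene, were named, with the 5 genes most like Ppargc1a in each set of arrays. Members and lists were chosen with earlier results of these data known. Precision is limited by how few arrays there are. Each fit was tested on simulated data in which 200 probe sets were given known changes. Figures used matplotlib 3.10.9. Same-numbered arrays of the genotypes correlated by 0.0562 to 0.140 in their deviations from the group means, and 2 of the 4 pairs were under 0.1. The numbers were therefore not taken to pair samples, a choice that these values do not settle. Alternatives were quantile normalization, centring each array, dropping IDs that end in x_at, s_at or a_at, trend and robust eBayes, array weights, the replicate block, a term for replicates 1 and 2 against 3 and 4, a minimum fold of 1.2, a threshold of 0.10, 1 value per gene and each array left out. The term for replicates 1 and 2 against 3 and 4 follows a split seen in these arrays, which no label calls a batch.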

Additional observations from a re-analysis of the deposited data

Results flagged for a closer look

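Within the 4 arrays of a genotype, 7 of 90 sets of values had 1 array set apart from the other 3 by more than Dixon's critical value, which chance does in about 1 of 20 sets. BSKO 2 was that array for Ppard on 1425703_at (0.64) and for the probe set means of Polg2 (0.63), Acaa2 (-0.99) and Ucp1 (0.83). BSKO 3 was set apart for Nefh (-0.70). WT 1 was set apart for Tfam on 1448224_at (0.14), above the other WT arrays, and for Acsl4 (0.029), below them.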

How the results depend on the processing

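The number of arrays, BSKO 2 and the choice of model limit these results most, and the cause of each change was not tested. Array weights with 8 arrays let BSKO 4 (3.69) count far more than the other BSKO arrays (0.046 to 0.83). With 8 arrays the 7 probe sets called became 678 with quantile normalization, 108 with trend and robust eBayes, 2617 with array weights, 84 with a term for replicates 1 and 2 against 3 and 4, 3 with a minimum fold of 1.2 and 66 at a threshold of 0.10, and 0 to 369 with 1 array left out. Of the member probe sets, 0 became 2, 1, 4 and 1 under the first 4 of these and 1 at the threshold of 0.10, and 0 to 3 with 1 array left out. Without BSKO 2 the 369 probe sets called became 3005 with array weights, 744 with the term for replicate numbers, 17 with the minimum fold and 1131 at the threshold of 0.10, and 19 to 1069 with 1 more array left out. The 3 member probe sets called became 1 with trend and robust eBayes and 0 with the minimum fold, and 0 to 3 with 1 more array left out. All 3 belong to Cd36, so 1 value per gene counts them as 1 gene. Cd36 passed there too (limma adjusted p = 0.0209 without BSKO 2), so that change of unit lost no result. With the replicate number as a block, 0 probe sets and 0 members were called in either fit. The labels do not say whether same-numbered arrays share more than a number. By correlation, 2 of the 4 BSKO arrays were most like the WT array of their own number, which does not settle it.

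Cd36, averaged over its probe sets, stayed below 0 with any array left out. The sign of some differences that passed no test turned. With 8 arrays, array weights gave 0.0051 for Ppargc1a on 1460336_at, 0.084 for Esrra, -0.22 for Ppara, -0.25 and -0.33 for Cpt1a on 1434866_x_at and 1438156_x_at, 0.027 for Bdh1, 0.031 for Oxct1, 0.030 for Lipe and 0.021 for Ucp3. Quantile normalization gave -0.13 for Ppara, -0.18 and -0.24 for that pair of Cpt1a probe sets, 0.041 for Bdh1 and 0.0020 for Oxct1. With 8 arrays and no alternative setting, the mean over all Cpt1a probe sets differed by -0.013. Without BSKO 2, array weights gave 0.10 for Esrra, 0.021 for Ucp1 and 0.0044 for Pvalb. The replicate block gave 0.11 for Ppara and -0.032 for Polg2. For Ppargc1a on 1460336_at, quantile normalization gave -0.034 and the term for replicate numbers -0.0053. The mean over all Ppargc1a probe sets differed by -0.25, which is not a value of that probe set alone.

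With 1 of the 8 arrays left out, the difference ranged from -0.13 to 0.039 for Ppargc1a on 1460336_at, -0.24 to 0.031 for Esrra, -0.14 to 0.16 for Ppara, -0.44 to 0.62 and -0.47 to 0.57 for the Cpt1a pair, -0.42 to 0.24 for the Cpt1a mean, -0.099 to 0.050 for Bdh1, -0.12 to 0.071 for Oxct1, -0.42 to 0.11 for Lipe, -0.0033 to 0.33 for Ucp1, -0.046 to 0.028 for Ucp3 and -0.094 to 0.18 for Syt2. With 1 more left out beside BSKO 2, it ranged from -0.11 to 0.14 for Ppargc1a on 1460336_at, -0.30 to 0.11 for Esrra, -0.29 to 0.12 for Ppara, -0.032 to 0.055 for Polg2, -0.017 to 0.091 for Bdh1, -0.032 to 0.15 for Oxct1, -0.038 to 0.080 for Pnpla2, -0.15 to 0.22 for Acot1, -0.081 to 0.12 for Ucp1, -0.0030 to 0.064 for Ucp3 and -0.023 to 0.39 for Syt2.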
